A study of Caenorhabditis elegans with 12 samples.

Results

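Simple sequence repeats are stretches of DNA in which a short unit of bases is repeated in tandem, and small RNAs that match them were examined here across the inputs and WAGO-4 immunoprecipitates (IPs) of Caenorhabditis elegans. A row was taken as a member when its class in the deposited tables was repeat and its name was a unit in brackets followed by n, such as (CAG)n. The count table of the 6 inputs held 1747 such rows among 63014 features, and the tables of WAGO-4 targets held 25 among 4850 in WT and 24 among 4185 in the 3×FG mutant. Of the 1747 rows, 1384 counted reads antisense to the unit as named and 363 counted reads of the same strand. Each row sums every annotated copy of that unit in the genome, and the files give no position for it, so the rows were not placed on chromosomes or in genes here.

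The animals were young adults grown at 20 °C and lysed whole. Both strains carry WAGO-4 with a 3xFLAG::GFP tag at its own locus, from the allele gg620, so the controls carry the tagged protein too. WT is the strain YY1325 with that allele alone. The 3×FG strain, SS142 in the labels, adds changes to 3 germ granule helicases of the GLH family: allele50 in glh-1 and allele16 in glh-4, each with phenylalanine replaced by alanine in the FG dipeptides, and allele49 in glh-2, a deletion of its FG region. Each strain gave 3 inputs, which are total small RNA of the lysate, and 3 IPs on beads that bind GFP, and the study describes them as biological replicates.

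22G-RNAs are antisense small RNAs that RNA-dependent RNA polymerases of the worm copy from target transcripts, and they are named for their usual length and their first base, guanine. WAGO-4 is a germline Argonaute that binds them, sits in germ granules and is known for carrying silencing from parent to progeny. Simple repeats occur in introns, between genes and in coding exons, and units whose length is a multiple of 3 keep the reading frame when they expand. The repeat (TTAGGC)n is the sequence of worm telomeres.

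The unit decides which bases a matching small RNA can hold. An antisense read of a perfect copy is the reverse complement of the unit, so an antisense row can give a read with a guanine only if its unit has a cytosine. The units below are those on which the results turn, written as the read would hold them, 5′ to 3′, in lower case with guanines in capitals. The most abundant row in the inputs holds no guanine on the read strand.
Row (GAT)n antisense: atc
Of the rows that read the opposite strand of the same repeat, the 3 shown next were listed as WAGO-4 targets, and they differ only in the base at which the unit starts.
Row (ATC)n antisense: Gat
Row (TCA)n antisense: tGa
Row (CAT)n antisense: atG
The rows of an 8-base repeat that was lower in 3×FG inputs also share a strand and differ only in phase, although the third is named on the other strand.
Row (CCTACGTG)n antisense: cacGtaGG
Row (TGCCTACG)n antisense: cGtaGGca
Row (AGGCACGT)n sense: aGGcacGt
The row called lower by the largest fold has a different 8-base unit.
Row (TAAGGATC)n antisense: Gatcctta
The telomeric rows with the most reads come from opposite strands.
Row (GCCTAA)n antisense: ttaGGc
Row (AGGCTT)n antisense: aaGcct
Among the WAGO-4 targets, the rows called in the IP tests and the row that shares a repeat with the highest of them are shown last.
Row (AGCTCC)n antisense: GGaGct
Row (CCAGCT)n antisense: aGctGG
Row (ACATCA)n antisense: tGatGt
Row (TCTTTCC)n antisense: GGaaaGa
Row (CAGCAG)n antisense: ctGctG
Row (GCA)n antisense: tGc
The reads themselves are not in the files, so these strands follow from the unit and the strand class of each row.

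The inputs differed in depth and in batch. Reads assigned to features ranged from 2072770 to 19016242 in WT and from 11341619 to 74846970 in 3×FG, and WT inputs 1 and 2 carry the batch label A while all other libraries carry B. The table was not limited to 22G-RNAs, since let-7, a microRNA, took 2542 to 3695 CPM (reads scaled to a total of 1000000 assigned reads). The marker sets moved with group or batch: the microRNAs mir-35 to mir-42, known from oocytes and embryos, summed to 17047 to 38721 CPM in WT and 11862 to 13626 CPM in 3×FG, and the germline 21U-RNA loci to 4991 to 23406 CPM in WT and 7025 to 10370 CPM in 3×FG. The rows of the GFP tag lay between 1.22 and 2.52 CPM in every input, and let-7 and lin-4, a further microRNA, were present in all 6. In whole worms fewer germline cells and less small RNA per cell cannot be told apart, and the part of the marker shifts in the results below was not tested.

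Simple repeats took a small share of the input reads, which was lower in 3×FG on this scale. They summed to 906, 1004 and 903 CPM in the WT inputs and to 751, 776 and 765 CPM in the 3×FG inputs. The groups did not overlap, and the means were 937 ± 57.8 and 764 ± 12.5 CPM (SD, n = 3), a ratio of 0.815. A 2-sided exact permutation test of 3 against 3 libraries cannot go below p = 0.1, so no test is given for sums. Reads of ribosomal RNA rows were 3.39% and 5.26% of the batch A inputs and 15.9% to 21.2% of the others. With ribosomal rows left out of the total the WT inputs came to 937, 1060 and 1145 CPM against 943, 933 and 911 CPM for 3×FG, so that the groups overlapped at a ratio of 0.887. Within batch B the value of WT input 3 stayed above all 3 mutant inputs on both scales. Other repeat rows, 354 transposon and satellite families and the like, took 64128 to 91448 CPM, so simple repeats were 0.981% to 1.39% of all repeat reads. Those other rows had a ratio of 0.845 for 3×FG over WT, with overlapping groups.

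The sense rows differed between the strains in larger proportion than the antisense rows. Sense and antisense here follow the unit as named, not a transcript. With phase set aside, (GTG)n sense holds the same repeat on the read strand as (CCA)n antisense. Sense rows summed to 143, 150 and 138.3 CPM in WT and 83.3, 87.5 and 80.4 CPM in 3×FG, a ratio of 0.583. Antisense rows summed to 762, 855 and 764 CPM in WT and 668, 689 and 685 CPM in 3×FG, a ratio of 0.857. The sums by strand were not computed without ribosomal rows, a change under which the sums of all simple repeats overlapped. The row (GTG)n held most of the sense reads, and without it the sense rows averaged 53.7 ± 2.61 CPM in WT and 34.9 ± 3.26 CPM in 3×FG (SD, n = 3).

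**Figure D1:**
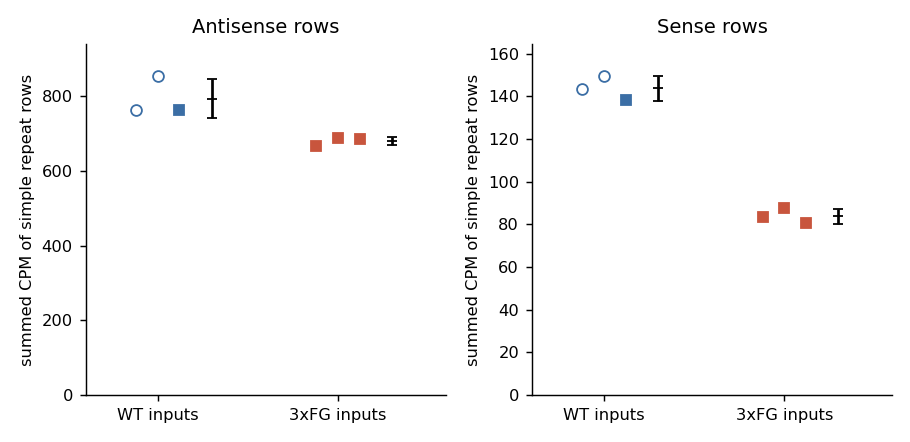
Summed CPM of the antisense rows (left) and sense rows (right) of simple repeats in each input, with WT in blue and 3×FG in red, open circles for batch A and filled squares for batch B, and bars for the mean ± SD of 3. On this total, which includes ribosomal rows, the 3 mutant inputs lie below all WT inputs in both panels. Antisense rows lie at 668 to 689 CPM against 762 to 855 CPM.

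Most rows were close to empty. Of the 1747 rows, 1210 had under 10 reads over the 6 inputs together, the median was 3 reads, 94 had none, and 185 had a read in every input. The filter on low counts left 145 rows to test, 135 antisense and 10 sense, which held 86.4% of the simple repeat CPM. A row that passed that filter through the strain in which it is high had to differ, so counts over the tested rows are a description.

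The 10 highest rows held 40.7% of the simple repeat CPM. The highest, (GAT)n antisense, had 115, 110 and 86.3 CPM in WT and 97.6, 104 and 93.1 CPM in 3×FG. The mutant values lay inside the WT range, with a log2 fold change of -0.27 ± 0.19 (SE; edgeR adjusted p = 0.443). The next, (GTG)n sense, had 91.2, 97.4 and 81.6 CPM in WT against 48.5, 49.4 and 48.8 CPM in 3×FG. Every mutant value was well below every WT value, yet the log2 fold change of -1.08 ± 0.17 missed the threshold of adjusted p under 0.01 (edgeR adjusted p = 0.0109), while DESeq2 called it (adjusted p = 8.34e-09). (TTCTA)n antisense had 34.7, 35.5 and 30.1 CPM in WT and 36.0, 44.2 and 33.7 CPM in 3×FG, with overlapping groups. (GAATCA)n antisense averaged 29.1 ± 4.27 CPM in WT and 19.1 ± 0.38 CPM in 3×FG without overlap (edgeR adjusted p = 0.0482). (TGA)n antisense had 26.5, 33.9 and 17.1 CPM in WT and 13.7, 13.6 and 11.6 CPM in 3×FG, and was not called (edgeR adjusted p = 0.0628). (GAATTTTC)n sense averaged 18.6 ± 2.37 CPM in WT and 11.4 ± 1.64 CPM in 3×FG without overlap (edgeR adjusted p = 0.0554). The other rows among the highest, (CCTA)n with (CTTTCT)n and with (AACTCTG)n, all antisense, had overlapping groups.

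In the test of 3×FG against WT inputs, 3 of the 145 rows were called lower and 0 higher, at adjusted p under 0.01 and more than 2-fold by edgeR. Over all 22301 features tested 2.04% were called lower and 0.839% higher, so the share of simple repeats called lower, 2.07%, was close to that of features at large. At an unadjusted p under 0.05, 35 of the 145 rows were lower and 16 higher, beside 14.7% and 11% of all features. DESeq2 called 17 rows lower and 2 higher, beside 7.48% and 3.44% of all features. The batch B libraries alone, WT input 3 against the mutant inputs with the spread taken from the latter, gave 14 lower and 2 higher of 323 rows, beside 2.83% and 2.44%. Leaving out any 1 of the mutant inputs left 0 rows called, and leaving out WT input 3, the only batch B input of WT, gave 26 lower and 8 higher of 140 rows, in a fit that called 13.9% of all features lower and 17.9% higher. The median log2 fold change was -0.25 over the 145 rows and 0.18 over all features. Over the 287 other repeat rows tested it was -0.84, and 19 of those were called lower and 2 higher. The median over all features was 0.35 with library totals in place of TMM scaling and -0.02 with batch as a term.

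All 3 rows called lower had units of 8 bases. (CCTACGTG)n antisense had 40.0, 39.8 and 41.7 CPM in the WT inputs and 9.23, 8.89 and 8.91 CPM in the 3×FG inputs. The replicates of each strain were nearly equal, in both batches, and the log2 fold change was -2.36 ± 0.17 (edgeR adjusted p = 0.00106). (AGGCACGT)n sense, the same repeat on the same read strand, fell from 1.45, 2.45 and 3.05 CPM to 0.414, 0.32 and 0.265 CPM, a log2 fold change of -2.97 ± 0.44 (edgeR adjusted p = 0.00999). That call sat at the threshold and was lost under 3 other settings of the scaling or filter and without WT input 1 or 2. The phase (TGCCTACG)n antisense went from 6.27, 4.29 and 3.94 CPM to 0.909, 1.35 and 0.97 CPM and was not called by edgeR (adjusted p = 0.0172). Over all 7 rows that match this repeat on that strand, the sum was 52.6, 48.8 and 52.3 CPM in WT and 11.5, 12.5 and 11.8 CPM in 3×FG. (CTACGTGC)n, a further phase, overlapped between the strains, so the rows of this repeat did not all behave alike.

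(TAAGGATC)n antisense fell by the largest fold of the called rows. It had 22.7, 12.04 and 10.8 CPM in WT and 0.454, 0.274 and 0.441 CPM in 3×FG. The lowest WT input lay far above the highest mutant input, and the log2 fold change was -5.45 ± 0.48 (edgeR adjusted p = 0.00178). In batch B alone it was -4.87 by edgeR (adjusted p = 4.66e-06). It is the only row of its repeat on that read strand.

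Further rows missed the edgeR threshold but were called by DESeq2 and in batch B alone, and are named after their values were seen. (CAACCA)n antisense had 7.24, 5.92 and 3.10 CPM in WT against 0.935, 0.457 and 0.353 CPM in the mutant (edgeR adjusted p = 0.019). (CGA)n antisense had 4.34, 5.92 and 8.15 CPM against 1.47, 1.07 and 2.47 CPM (edgeR adjusted p = 0.0275). Both were lower in every mutant input. In the other direction (ATCGCCG)n antisense had 1.45, 1.63 and 0.736 CPM in WT against 4.78, 4.96 and 5.29 CPM in 3×FG, and (TCTTAT)n antisense had 2.41, 2.25 and 1.05 CPM against 5.68, 5.39 and 6.26 CPM. These were the 2 rows that DESeq2 called higher (adjusted p = 0.000905 and 0.00802), where edgeR gave adjusted p = 0.0479 and 0.0851.

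**Figure D2:**
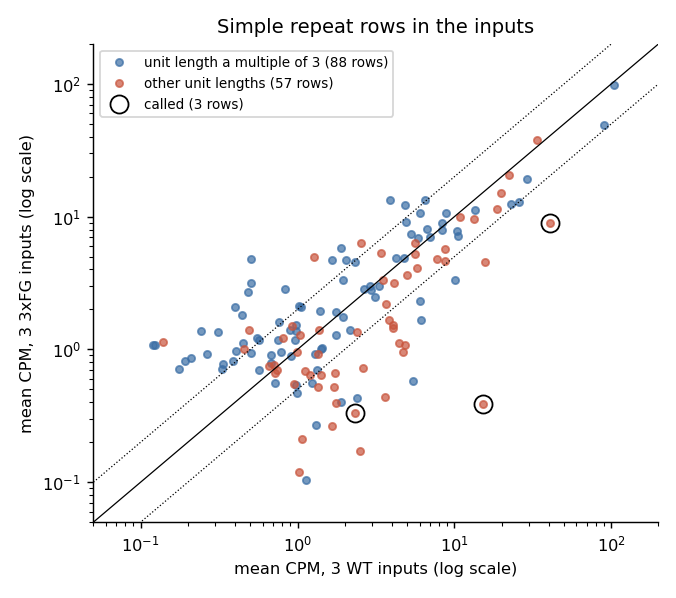
Mean CPM of the 145 tested rows in the 3 WT inputs (x) and the 3 3×FG inputs (y), both on log scales, in blue for unit lengths that are a multiple of 3 and red for others, with the solid line at equality and dotted lines at 2-fold. The 3 circled rows are those called by edgeR, all with units of 8 bases and all below the lower dotted line.

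Rows differed by unit length, where the class with the most reads was units of 3 bases with 35.1% of the simple repeat CPM, followed by units of 6 with 23.9%. Units whose length is a multiple of 3 summed to 524, 589 and 534 CPM in WT and 504, 517 and 527 CPM in 3×FG, so the strains overlapped. Units of other lengths summed to 381, 415 and 369 CPM in WT and 248, 260 and 239 CPM in 3×FG and did not overlap. As a share within simple repeats, which no scaling changes, units of other lengths were 42.1%, 41.3% and 40.9% in WT and 32.9%, 33.5% and 31.2% in 3×FG. Units of 8 bases alone went from 99.6 ± 10.3 CPM to 32.2 ± 3.32 CPM. Much of that lay in the called repeats, so it is not a separate result. The repeat of (CCTACGTG)n went from 51.2 to 11.9 CPM on its read strand, and (TAAGGATC)n from 15.2 to 0.39 CPM. Without units of 8 bases the other lengths were 29.8%, 32.0% and 30.6% of the simple repeat reads in WT. In 3×FG they were 28.5%, 29.0% and 27.4%, a smaller gap that still did not overlap.

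Among rows with a mean of at least 2 CPM over the 6 inputs the length classes were also compared row by row. Of 29 such rows with other unit lengths, 13 lay below and 2 above WT in every mutant input. Of 37 rows with a multiple of 3, 8 lay below and 9 above. Over all 14362 features at that level 15.8% lay below and 27.7% above. A row can reach that mean through the strain in which it is high, so these counts are a description. No test of the difference between the length classes was run.

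Some rows, named after their values were seen, differed by batch or by library within WT. (TGGTCCTGG)n antisense had 0 reads in WT inputs 1 and 2, and 11.7 CPM in WT input 3 against 14.6, 15.3 and 9.96 CPM in 3×FG. Its second phase, (TCCTGGTGG)n, was also at 0 in both batch A inputs. (TCAGT)n antisense had 33.2 CPM in WT input 3 and 5.79 and 8.16 CPM in the other WT inputs, against 4.33, 3.5 and 5.73 CPM in 3×FG. Over all 6 inputs edgeR called neither (TGGTCCTGG)n (adjusted p = 0.554) nor, with its single high WT input, (TCAGT)n (adjusted p = 0.0962). (TCAGT)n had a log2 fold change of -3.01 by edgeR both in batch B alone and with batch as a term. No mutant input is of batch A, so both settings set WT input 3 alone against the mutant inputs. (TGGTCCTGG)n was called higher by edgeR without WT input 3 (adjusted p = 1.94e-05), as was (TCCTGGTGG)n (adjusted p = 0.000123), when all WT inputs left are at 0. Batch and library cannot be told apart there.

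The telomeric repeat was represented by 23 rows, 12 antisense and 11 sense, covering every phase on at least 1 strand, and 5 of them had enough reads to test. None of these 5 was called by edgeR over all 6 inputs, and no telomeric row was listed as a WAGO-4 target. The highest, (GCCTAA)n antisense, whose reads are the guanine-rich telomere strand, had 13.0, 11.02 and 6.21 CPM in WT and 2.95, 3.91 and 3.17 CPM in 3×FG. The groups did not overlap, with a log2 fold change of -1.77 ± 0.40 (edgeR adjusted p = 0.0368), which was called by DESeq2 (adjusted p = 0.000232). In batch B alone the log2 fold change was -0.97 (edgeR adjusted p = 0.0891) and without WT input 3 it was -2.01 and was called (edgeR adjusted p = 0.000144). (GCTTAG)n antisense was likewise called without WT input 3 (-3.02, edgeR adjusted p = 0.000703). In batch B alone, with 1 WT input, its log2 fold change was smaller, at -0.68. Without WT input 3 the WT inputs are all batch A and the mutant inputs all batch B. For both rows strain and batch then cannot be told apart, in a fit that called 13.9% of all features lower and 17.9% higher. (TTAGGC)n antisense, which had too few reads for the test over all inputs, had 0.482, 1.02 and 1.58 CPM in WT and 0.267, 0.16 and 0.176 CPM in 3×FG. It was called lower in batch B alone (-2.93, edgeR adjusted p = 0.00308).

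The 12 rows that give guanine-rich telomeric reads summed to 15.4, 18.6 and 10.3 CPM in WT and 5.40, 6.54 and 6.44 CPM in 3×FG. The 11 rows that give cytosine-rich reads summed to 4.82, 8.16 and 5.84 CPM in WT and 4.41, 3.93 and 4.41 CPM in 3×FG. On both strands every WT input lay above every mutant input, with ratios of 0.415 and 0.677. For the cytosine-rich rows that gap was narrow, 4.82 CPM in WT input 1 against 4.41 CPM in 3×FG. WT input 1 was the shallowest library, with 2072770 assigned reads. The telomeric sums were not computed without ribosomal rows, a change under which the sums of all simple repeats overlapped. Within the cytosine-rich rows (AGGCTT)n antisense ran the other way, with 1.93, 1.63 and 2.31 CPM in WT and 3.33, 2.88 and 3.79 CPM in 3×FG, and was not called (edgeR adjusted p = 0.385). These sums rest on 1081 and 713 reads over all 6 inputs.

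**Figure D3:**
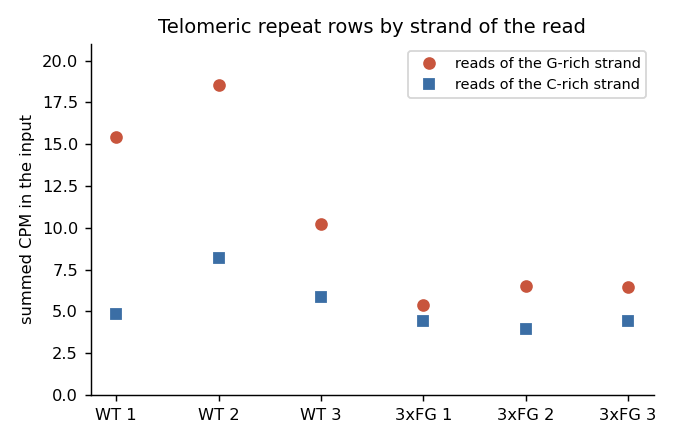
Summed CPM of the telomeric repeat rows in each of the 6 inputs, split by the strand of the read, with circles for the guanine-rich and squares for the cytosine-rich strand. Guanine-rich reads lie at 10.3 to 18.6 CPM in WT and 5.40 to 6.54 CPM in 3×FG, and WT inputs 1 and 2 are batch A.

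The WAGO-4 target tables list features that the authors kept at 5 RPM or more in the IP and at least 2-fold over input in each replicate. RPM are the authors' reads scaled to 1000000, and they differ from the CPM above. For (AGCTCC)n, WT input 2 had 4.69 CPM and 2.89 RPM. Simple repeats were 25 of the 31 repeat rows listed in WT and 24 of the 27 listed in 3×FG, and they were 83.2% of the repeat rows in the count table. Of the simple repeat rows counted in the inputs, 1.43% were listed in WT, beside 7.70% of all features. Of the WT simple repeat targets 80% were also listed in 3×FG, and 83.3% of the mutant's were listed in WT. Over all features the corresponding shares were 84.1% and 97.5%.

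All 29 rows listed in either strain were antisense, and 26 of them had units of 3 or 6 bases. Units of 3 or 6 made up 43.2% of all simple repeat rows and 54.5% of those with enough reads to test. A cytosine in the unit, and so a guanine in the read, was found in 28 of the 29, beside 80% of the tested antisense rows. The exception was (GATGAA)n, listed in WT alone. Of the 10 highest input rows 1 was listed, of the 20 highest 5 and of the 50 highest 14, beside 1.66% of all simple repeat rows listed in either strain.

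Rows listed in 1 strain were mostly low in the IPs. Listed in WT alone were (ACAGCA)n with (CAACAA)n and with (GATGAA)n, as well as (TCAT)n and, with the lowest input of these, (TCATCG)n. In the WT IPs (CAACAA)n had 7.41, 7.11 and 5.28 RPM and (TCATCG)n had 6.37, 7.73 and 10.9 RPM. (ACAGCA)n had 5.68, 5.67 and 7.27 RPM in the WT IPs. The row (GCAACA)n, the same repeat in another phase, was listed in 3×FG alone with 8.48, 8.67 and 7.95 RPM in the IPs. (GATGAA)n was the highest of the WT group with 28.5, 24.1 and 22.3 RPM in the IPs over inputs of 4.08, 4.43 and 6.11 RPM, and (TCAT)n had 9.61, 10.1 and 16.8 RPM.

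In 3×FG alone (CTGAAT)n was the highest, with 13.9, 14.3 and 12.1 RPM in the IPs over inputs of 0.251, 0.446 and 0.43 RPM, an enrichment of 28.2 to 55.2. (TTCTTC)n had 9.37, 5.32 and 5.58 RPM and (CTCCAC)n had 6.86, 5.93 and 5.14 RPM. IP values in the other strain are not in these tables for the 9 rows listed once, so none was tested. Counted by repeat and read strand with phase set aside, 18 repeats were listed in each strain and 15 of them in both.

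The 20 rows listed in both strains summed to 1136, 1305 and 1009 RPM in the WT IPs and 953, 762 and 894 RPM in the 3×FG IPs. The groups did not overlap, at 1150 ± 149 and 870 ± 97.9 RPM (SD, n = 3). The rows highest in the IPs weigh most in these sums. Mean RPM went from 380 to 205 for (AGCTCC)n, 217 to 140 for (CTTTCT)n and 108 to 37.7 for (ATC)n. Of the 20 rows, 9 had a log2 difference above 0. The inputs of the 20 rows summed to 78.6, 94.8 and 74.6 RPM in WT and 75.3, 76.1 and 92.8 RPM in 3×FG, which overlapped. Of these rows 5 were lower in every mutant IP and 4 higher, beside 51.7% and 17% of the 4080 features listed in both strains. By limma on log2(RPM + 1), 2 were called lower and 1 higher, beside 19.7% and 0.613% of those features.

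The median log2 difference of the 20 rows in the IPs was -0.01, and that of all 4080 features was -0.30. Rescaling the IPs by trimmed means moved the latter to 0.01, and then 4 rows were called higher and 2 lower, beside 2.38% and 13% of all features. Changes of single rows are best read against that shift.

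**Figure D4:**
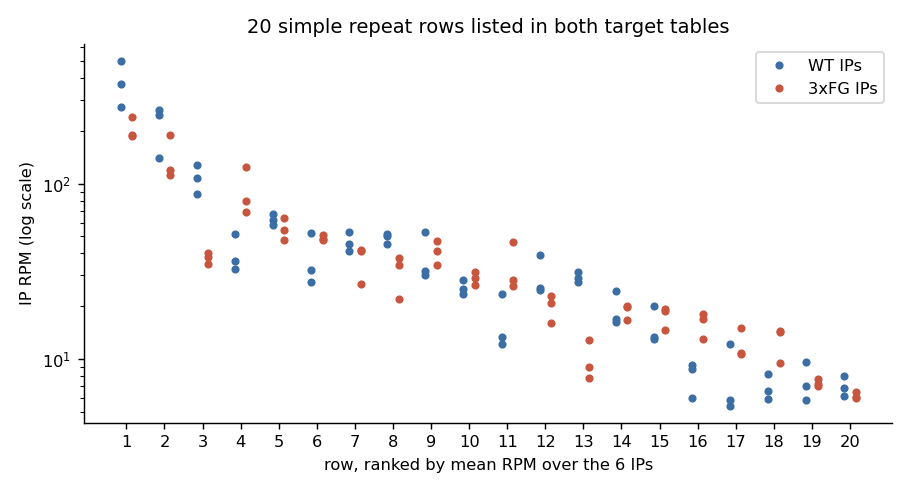
IP RPM on a log scale for the 20 rows listed in both strains, ordered by their mean over the 6 IPs, with 3 WT IPs in blue and 3 3×FG IPs in red. Row 1 is (AGCTCC)n at 273 to 499 RPM in WT and 187 to 239 RPM in 3×FG, row 3 is (ATC)n and row 4 is (ACATCA)n, the only 1 of the first 5 that is higher in 3×FG.

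(AGCTCC)n had the most reads in the IPs. It had 368, 499 and 273 RPM in the WT IPs and 190, 187 and 239 RPM in the 3×FG IPs, while its inputs were 2.27, 2.89 and 6.16 RPM in WT and 7.37, 7.45 and 13.2 RPM in 3×FG. The strains thus differed in opposite directions in IP and input, without overlap in either. The input difference on the counts was 1.08 ± 0.41 on the log2 scale and was not called (edgeR adjusted p = 0.15). In batch B alone it was 0.59. The WT replicates were enriched 162-fold, 172-fold and 44.3-fold over input, and those of 3×FG 25.9-fold, 25.1-fold and 18.1-fold. WT inputs 1 and 2, of batch A, held only 5 and 23 counted reads of this row. The IP difference was -0.85 ± 0.20 on the log2(RPM + 1) scale, below the 2-fold limit (limma adjusted p = 0.00547). The difference in IP over input was -2.004 ± 0.35 and was called (limma adjusted p = 5.82e-05). (CCAGCT)n, the same repeat in another phase, had 7.002, 5.81 and 9.66 RPM in the WT IPs and 7.75, 7.06 and 7.23 RPM in the 3×FG IPs, and the groups overlapped.

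Rows of the repeat (ATC)n, in its 3 phases, were not alike in the IPs. Phases of a repeat may share reads, so the level of each row is uncertain. The IPs were not summed or tested by repeat, so a call here is of a row and not of its repeat. (ATC)n itself had 108, 128 and 87.2 RPM in WT and 38.3, 34.7 and 40.0 RPM in 3×FG. It fell by 1.48 ± 0.14 on the log2 scale (limma adjusted p = 2.93e-05). Its input was also lower by RPM, 6.80, 10.6 and 8.05 RPM against 4.71, 4.32 and 5.94 RPM. By CPM the inputs overlapped, at 7.72, 13.5 and 10.6 CPM in WT and 7.07, 6.47 and 7.76 CPM in 3×FG. They were not called (edgeR adjusted p = 0.152). Relative to input the IP did not pass the test (-0.82 ± 0.28, limma adjusted p = 0.0172). (TCA)n had 45.1, 50.1 and 51.3 RPM in WT and 37.6, 22.1 and 34.4 RPM in 3×FG, without overlap, and was not called (-0.66 ± 0.19, limma adjusted p = 0.0132). (CAT)n had 62.2, 67.2 and 57.9 RPM in WT and 54.4, 47.6 and 63.7 RPM in 3×FG, which overlapped.

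The rows of the repeat (CAG)n showed a similar split, with the same limit on reading single rows. (CAGCAG)n, the same repeat annotated with a doubled unit, had 28.9, 27.4 and 31.2 RPM in the WT IPs and 9.03, 7.76 and 12.8 RPM in the 3×FG IPs. It fell by 1.50 ± 0.17 on the log2 scale (limma adjusted p = 7.97e-05) from overlapping inputs of 1.82, 2.32 and 1.86 RPM in WT and 2.34, 2.36 and 1.86 RPM in 3×FG, and its IP over input fell by 1.59 ± 0.29 (limma adjusted p = 8.33e-05). (CAG)n had 23.5, 25.0 and 28.1 RPM in WT and 31.2, 26.5 and 28.9 RPM in 3×FG, which overlapped. (GCA)n had 53.2, 45.2 and 41.3 RPM in WT and 26.6, 41.9 and 41.0 RPM in 3×FG, with inputs of 5.65 ± 1.44 and 11.6 ± 0.95 RPM. Its IPs overlapped, its inputs did not, and its IP over input fell by 1.31 ± 0.29 (limma adjusted p = 0.000824).

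Higher IP signal in 3×FG was seen for few rows. (ACATCA)n had 32.8, 36.0 and 51.4 RPM in the WT IPs and 124, 68.6 and 79.1 RPM in the 3×FG IPs, while its inputs were 6.80, 4.62 and 4.06 RPM and 2.31, 1.80 and 2.11 RPM. It rose in the IP by 1.14 ± 0.24 on the log2 scale (limma adjusted p = 0.00269), where 3×FG IP 1 was the highest library and without it the rise was 0.89, under 2-fold. In IP over input it rose by 2.12 ± 0.32 (limma adjusted p = 8.15e-06), from an enrichment of 4.82 to 12.7 in WT to 37.4 to 53.9 in 3×FG.

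(TCTTTCC)n had 12.3, 13.4 and 23.4 RPM in the WT IPs and 46.6, 26.2 and 28.3 RPM in the 3×FG IPs. Its IP difference of 1.01 ± 0.27 missed the threshold by its adjusted p of 0.0111 (limma), and its IP over input rose by 1.47 ± 0.34 (limma adjusted p = 0.000996). That call was lost without replicate 2 of WT (1.19, adjusted p = 0.0117) or replicate 3 of 3×FG (1.61, adjusted p = 0.0113), both by limma. (TTCGTC)n at 9.28, 8.75 and 5.98 RPM in WT and 13.0, 16.9 and 18.1 RPM in 3×FG, and (CAGATC)n at 6.57, 5.92 and 8.19 RPM and 14.2, 9.46 and 14.4 RPM, lay above WT in every mutant IP and were not called, with log2(RPM + 1) differences of 0.93 and 0.78.

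For IP over input the test called 3 of the 20 rows lower and 2 higher, beside 24.1% and 0.245% of all 4080 features. The median over the 20 rows was -0.05 and over all features -0.67 on the log2 scale. With WT input 3 in place of both batch A inputs the medians were -0.11 and -0.53. That 1 library then served all 3 WT IPs, so the WT inputs added no spread and no calls are read from it. Rescaling by trimmed means moved the median of all features to -0.05 and left 1 row lower, (AGCTCC)n, and 2 higher, beside 3.8% and 1.47% of all features.

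**Figure D5:**
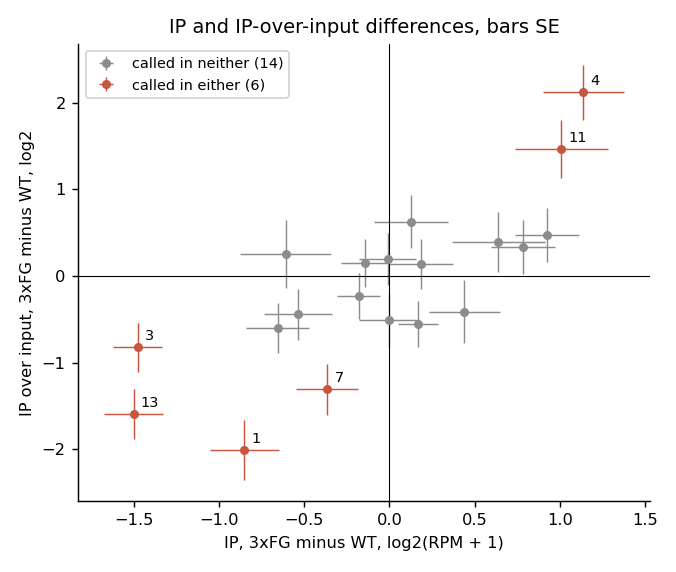
Difference of 3×FG minus WT in the IPs (x) and in IP over input (y) for the 20 rows listed in both strains, on log2 scales with bars of 1 SE; the 6 rows called in either test are red and carry their rank by IP RPM. Rows 4 and 11, (ACATCA)n and (TCTTTCC)n, lie at the upper right and rows 1, 3, 7 and 13 at the lower left.

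The remaining rows gave no call. (CTTTCT)n, the only row in both the 10 highest inputs and the targets, had 246, 264 and 139.1 RPM in the WT IPs and 189, 113 and 119 RPM in the 3×FG IPs, with overlapping groups. (TTCTCT)n, its second phase, had 24.3, 16.4 and 17.0 RPM and 16.6, 19.9 and 20.1 RPM. (TC)n had 31.6, 30.0 and 53.2 RPM in WT and 46.8, 34.3 and 41.2 RPM in 3×FG. (CAGTCG)n had 27.3, 32.3 and 52.1 RPM and 48.6, 47.6 and 50.9 RPM. In each of these the strains overlapped. (ACA)n, at 24.7, 25.2 and 39.0 RPM in WT and 22.8, 16.0 and 20.9 RPM in 3×FG, was lower in every mutant IP and not called (limma adjusted p = 0.0425). (CCA)n, (TTCTTG)n and (TTTCCA)n averaged between 6.18 and 17.6 RPM in the IPs of either strain and overlapped.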

How the data were processed

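Counts of small RNA reads per feature in 6 inputs, and RPM in inputs and IPs of the features listed as WAGO-4 targets, were used as the authors deposited them. Per the labels, reads passed through cutadapt 1.15 and STAR 2.6.0c, and the builds ce11 and ce10 are named without a role. How reads that match many places were counted is not given in the sources used here, and copies of a repeat share reads, so each row's level is uncertain between phases. The deposited RPM have 0.01 added, and a value at 0.01 is a 0. Input RPM and input counts do not rest on the same reads. For (CCAGCT)n, WT input 2 had 4 counted reads and an RPM at 0.01. The RPM keep no whole reads, so the depth of the IPs is unknown. The tables' own enrichment ratios and averages were not used. Reads of no feature, 4.58% to 6.14% per input, were left out of the totals.

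The members and lists were chosen with earlier results of these data known. Rows were named if listed in 1 target table, among the 10 highest in the IPs or inputs, called, or telomeric, and other rows were chosen after their values were seen. Inputs were compared with edgeR 4.0.16 (quasi-likelihood, TMM scaling, filterByExpr, strain as the only term), and IPs and IP over input (an interaction over 12 libraries) with limma 3.58.1 on log2(RPM + 1), with Benjamini-Hochberg adjustment over all features and calls at adjusted p under 0.01 and log2 beyond 1. SE in edgeR was the fold change over the root of F. DESeq2 1.42.0 and other settings were alternatives. The scripts were checked on simulated data. Same-numbered inputs of the strains did not deviate together, so no pairing was used. Within a strain the library names tie an IP to an input of the same preparation, with correlations of deviations from 0.0107 to 0.124, and with that preparation as a block the counts for IP over input were unchanged at 2 higher and 3 lower.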

Additional observations from a re-analysis of the deposited data

Results flagged for a closer look

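The enrichment of IP over input differed between the strains, by the interaction term in limma, for 5 of the 20 rows listed in both. The difference of 3×FG minus WT was -2.004 on the log2 scale for (AGCTCC)n, -1.59 for (CAGCAG)n and -1.31 for (GCA)n. It was 2.12 for (ACATCA)n and 1.47 for (TCTTTCC)n. Groups of 3 libraries are too small for a test of outlying samples, and none was run.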

How the results depend on the processing

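In the inputs 0 simple repeats were called higher and 3 lower. The count called higher was 2 at adjusted p under 0.05, with batch as a term, in batch B alone and by DESeq2. The count called lower was 17 at adjusted p under 0.05 and by DESeq2, 14 in batch B alone, 11 with batch as a term and 5 with DESeq2 size factors in edgeR. With batch as a term and in batch B alone the strain difference rests on WT input 3, the only WT input of that batch. Leaving out 1 input at a time gave 0 to 8 called higher and 0 to 26 called lower. The counts were 8 and 26 without WT input 3, and 0 were called lower without any 1 mutant input. With no filter on low counts the median of the simple repeats turned from -0.25 to 0.60 on the log2 scale, over 1653 rows most of which hold few reads.

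With the replicate number as a replicate block the inputs gave 0 called lower, but same-numbered inputs did not deviate together (correlations of -0.26, -0.163 and -0.214), so they share only a number. In the IPs the replicate block gave 2 called higher, and in IP over input it changed no count.

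In the IPs 1 simple repeat was called higher and 2 lower. The count called higher was 2 at adjusted p under 0.05 and with a pseudocount of 0.1, and 4 with TMM scaling, and leaving out 1 replicate at a time gave 1 to 2 higher and 2 to 3 lower. Keeping only rows of at least 10 RPM in every IP left 1 called lower, 16 rows listed in WT in place of 25, and 2 in WT alone in place of 5, since fewer rows qualify. In IP over input TMM scaling left 1 called lower, with (CAGCAG)n at -1.06 (limma adjusted p = 0.015) and (GCA)n at -0.69 (limma adjusted p = 0.0451), and leaving out 1 replicate at a time gave 1 to 2 higher. The ratio of summed CPM was 0.887 without ribosomal rows, 0.847 in batch B alone, and 0.811 with both, a setting chosen after seeing the data. The cause of these changes was not tested. No direction of a named row's called value reversed under any of these settings. Rows of a few reads, the shallow WT inputs 1 and 2 and the batch labels limit what the inputs can show.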
